A study of Mus musculus with 2 samples.

Results

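The 32 genes described here are 18 genes of glucose uptake, glycolysis and lactate export and 14 genes of the response to low oxygen. They are a fixed list of gene symbols, looked up among 15059 genes in each of 4 tables of fibroblast subclusters and 6477 genes listed in at least 1 of 18 tables of cell clusters. All 32 were present in the 4 fibroblast tables. At least once in the cluster tables, 28 of them were listed, and 4 (Pfkfb4, Pdk1, Adm and Egln3) were listed in none.

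The measurements are droplet single-cell RNA profiles of interstitial cells sorted from infarcted mouse ventricles, with 1 library for each of 2 genotypes. The control library came from PostnMCM mice, in which a tamoxifen-inducible MerCreMer recombinase is expressed from the Postn locus, active in fibroblasts that turn into myofibroblasts after injury. The other library came from Yapfl/fl;Wwtr1fl/+;PostnMCM mice, in which both Yap1 alleles and 1 Wwtr1 allele can be excised in those cells; the PostnMCM mice served as the control for Cre toxicity. Mice of both genotypes carried R26-eGFP, had the left anterior descending artery ligated, ate chow with 0.4 g/kg tamoxifen from then on, and gave their hearts at day 6 per the labels, a day earlier than the published methods state. The number of animals behind each library is not given in the sources used here.

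The value analysed is the share of cells of a cluster with a normalised count above 0 for a gene, in percent, given for each library, and differences are in percentage points, the second library minus the control. Pairs of shares are given with the control library first. There were no replicates, and how many cells of each library a cluster holds, and the counts behind a share, are not in the tables, so no interval, error or test is given and all statements describe these 2 libraries. In the fibroblast subclusters a difference of at least 10 points in size is called lower or higher, with the share of all genes past the same limit given beside it. In the clusters a difference of any size is called so, beside the share of all listed genes that differed in that direction by any amount. As a guide to how coarse the shares are, the smallest share above 0 in the fibroblast tables ranged from 0.7% (control, subcluster 0) to 10.0% (second library, subcluster 4), and in the cluster tables from 0.2% to 9.1%. The cluster tables leave out genes of low share, so there the value can exceed the step between shares.

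The collagens Col1a1, Col1a2 and Col3a1 and the proteoglycan Dcn had a count in 100% of cells of both libraries in all 4 fibroblast subclusters, while Tcf21, a marker of resident fibroblasts, was as low as 2.1% in control cells of subcluster 0. Other fibroblast markers differed between the libraries, among them Pdgfra (38.6% and 71.9%) in subcluster 0, Pdgfra (66.7% and 87.0%), Lum (26.7% and 47.8%) and Postn (40.0% and 13%) in subcluster 3, and Tcf21 (43.5% and 81.0%) in subcluster 5. Yap1 shares differed by 10.0, 20.2, -17.5 and 17.2 points in subclusters 0, 3, 4 and 5, and those of Wwtr1 by 9.2, -2.0, -20 and -14.3 points. Neither targeted transcript was uniformly lower by this measure, which counts 3′ ends and says nothing of the protein, and the name used below for the second library is "the library labelled depleted". Markers of other cell types differed in both directions. Of 5 neutrophil markers (S100a8, S100a9, Retnlg, Csf3r, Mmp9), 4 of the 4 that passed the detection limit in subcluster 0 were lower, 5 of 5 in subcluster 3, 3 of 5 in subcluster 4 and 3 of 5 in subcluster 5. The summed shares of these markers went from 256.6 to 103.1, from 260.1 to 130.4, from 237.5 to 130.0 and from 226.1 to 138.1. The 3 erythroid markers summed to between 47.7 and 83.3 in control fibroblasts and to between 0.0 and 17.3 in those of the library labelled depleted. Of 5 macrophage markers 4, 3, 2 and 4 were lower in subclusters 0, 3, 4 and 5, and 1, C1qa, was higher in subcluster 4 (67.5% and 80.0%). The T cell markers Cd3d and Cd3e had summed shares of 15.8 and 15.6 in subcluster 0, 16.7 and 52.1 in subcluster 3, 15 and 40.0 in subcluster 4, and 13 and 57.2 in subcluster 5. The endothelial marker Kdr differed by 11.4, 12.4, 10.0 and -4.3 points in subclusters 0, 3, 4 and 5, while the other endothelial markers, Pecam1 and Cdh5, were in 0.0% to 9.5% of cells, with differences from -7.5 to 5.2 points. The part of these differences in the results below was not tested.

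Glycolysis splits glucose into pyruvate in the cytosol and yields ATP without oxygen. Glucose enters through transporters such as GLUT1 (Slc2a1), is trapped by hexokinases, committed to breakdown by phosphofructokinase, and ends as pyruvate, which lactate dehydrogenase turns into lactate for export through MCT4 (Slc16a3). When oxygen is low, the prolyl hydroxylases encoded by the Egln genes stop marking the transcription factor subunit HIF-1α (Hif1a) for degradation, and HIF-1 raises transcription of most glycolytic genes together with genes for angiogenesis, mitophagy and growth restraint. Infarcted myocardium is poorly supplied with oxygen, and activated macrophages and neutrophils are known for their high glycolytic flux.

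Many of these genes are textbook targets of HIF, which binds DNA at a core of ACGTG or GCGTG. The 300 bases upstream of the start of each gene's canonical transcript were therefore read on GRCm39 with GENCODE gene models. Other transcripts of a gene can start elsewhere, and 10 of the 32 windows, those of Ddit4 and Ldha among them, lie inside the gene. In these windows both cores were searched for on both strands, an overlapping match on each strand of a palindrome counting separately. At least 1 core was found in 12 of 18 glycolysis genes (66.7%) and in 10 of 14 hypoxia genes (71.4%), beside 9815 of 21770 protein-coding genes (45.1%). Of the windows inside a gene 8 of 10 held a core, and of the others 14 of 22. A match describes the letters of the window only. The windows of 3 genes that recur in the results are shown with the cores in capitals, in the direction of transcription. The Ddit4 window (chr10:59787663-59787962, minus strand) held 2 cores and overlapped 1 exon of another transcript of the gene. The Ldha window (chr7:46494963-46495262, plus strand) held 6 matches, 4 of them in palindromic CACGTG, and overlapped 3 exons of other Ldha transcripts, and the Slc2a1 window (chr4:118965608-118965907, plus strand) held 1 and overlapped no exon of the gene.
Ddit4: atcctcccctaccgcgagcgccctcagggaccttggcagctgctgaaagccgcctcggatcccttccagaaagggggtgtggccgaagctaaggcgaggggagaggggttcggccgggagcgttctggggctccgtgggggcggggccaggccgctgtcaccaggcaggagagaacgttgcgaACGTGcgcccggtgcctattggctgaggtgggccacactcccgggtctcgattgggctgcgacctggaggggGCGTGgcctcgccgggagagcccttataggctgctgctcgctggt
Ldha: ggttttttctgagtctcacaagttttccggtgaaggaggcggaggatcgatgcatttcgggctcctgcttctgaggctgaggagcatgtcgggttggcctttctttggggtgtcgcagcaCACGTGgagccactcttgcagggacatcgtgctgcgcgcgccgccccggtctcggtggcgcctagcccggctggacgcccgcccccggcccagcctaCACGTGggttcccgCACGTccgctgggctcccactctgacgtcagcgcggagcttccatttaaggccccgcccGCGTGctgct
Slc2a1: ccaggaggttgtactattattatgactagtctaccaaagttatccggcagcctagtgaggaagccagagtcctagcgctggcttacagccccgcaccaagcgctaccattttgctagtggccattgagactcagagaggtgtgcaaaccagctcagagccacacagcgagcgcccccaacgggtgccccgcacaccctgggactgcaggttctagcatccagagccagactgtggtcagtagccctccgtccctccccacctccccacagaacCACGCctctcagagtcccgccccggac

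In fibroblasts, fewer of these genes differed by at least 10 points in subclusters 0 and 3 than in subclusters 4 and 5. The same held for all genes of those tables. Per the study, subclusters 0 and 4 held mainly control cells and subclusters 3 and 5 cells of both genotypes, while the subcluster made up mainly of Yapfl/fl;Wwtr1fl/+;PostnMCM cells is not analysed here. Of the 30 genes with a mean share of at least 10% in subcluster 0, 2 were lower and 2 higher, beside 12.9% and 14.7% of all genes of that table. In subcluster 3, a population with Mki67 in 100% of cells of both libraries, 2 of 30 were lower and 2 higher, beside 21.9% and 17.4%. Subcluster 4, whose shares in the library labelled depleted are the coarsest, had 6 of 32 lower and 7 higher, beside 22.9% and 31.7%, and subcluster 5 had 5 of 30 lower and 9 higher, beside 19.6% and 28.1%. In subcluster 4 the smallest share above 0 in the library labelled depleted, 10.0%, is as large as the limit. Genes at 95% or more in both libraries could not reach 10 points. Without them, the members lower were 10.0%, 9.52%, 26.1% and 22.7% in subclusters 0, 3, 4 and 5, beside 14%, 23.9%, 24.5% and 21.4% of all genes, and those higher were 10.0%, 9.52%, 30.4% and 40.9%, beside 15.9%, 19.0%, 33.9% and 30.6%. With 20 to 23 members left in each subcluster, these differences from the share of all genes amount to a few genes each. The median difference of the glycolysis genes was -0.45, 0.0, 0.0 and 0.0 points in subclusters 0, 3, 4 and 5, and that of the hypoxia genes 0.25, 0.0, 2.5 and 5.6 points, beside 0.1, -0.2, 0.0 and 1.3 points for all genes.

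**Figure D1:**
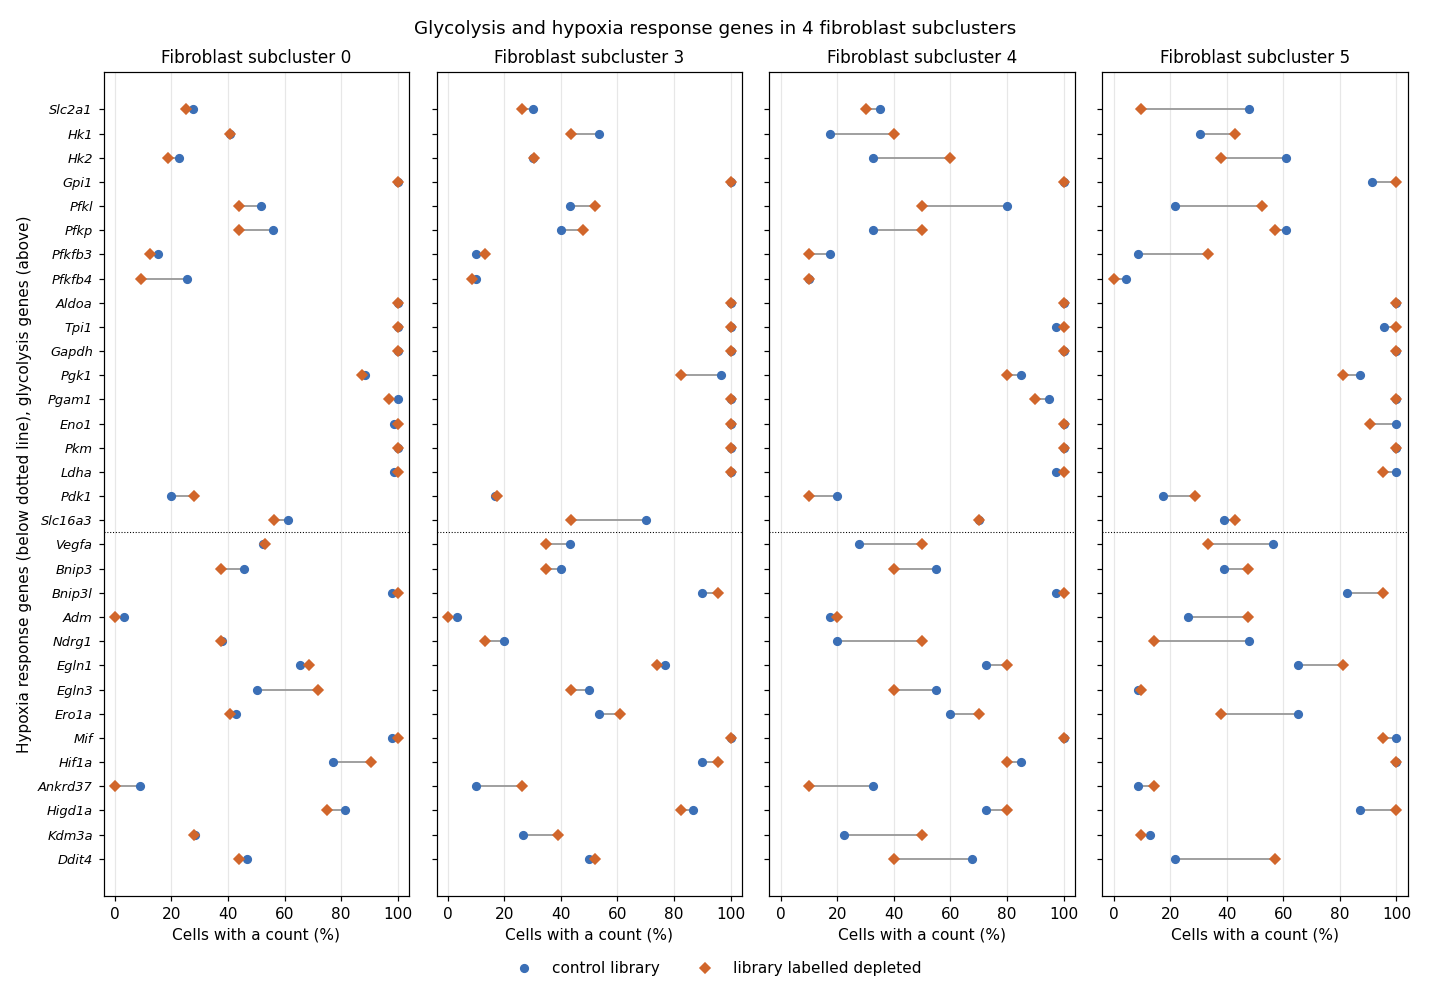
Share of cells with a count (percent, horizontal axis) for each of the 32 genes (vertical axis, glycolysis genes above the dotted line) in fibroblast subclusters 0, 3, 4 and 5; circles are the control library, diamonds the library labelled depleted, and each point is 1 library without an error. The genes at the right edge lay at or near 100% in both libraries, and the longest lines, such as Slc2a1 from 47.8% to 9.5%, are in subcluster 5.

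Much of this similarity lay in enzymes with a count in nearly all cells. The neutrophil transcript S100a9 and the macrophage transcript Lyz2 had a count in 91.7% and 89.0% of control cells of subcluster 0 as well, so a count alone does not show expression by the fibroblasts. Aldoa (aldolase), Gapdh and Pkm (pyruvate kinase) had a count in 100% of cells of both libraries in every subcluster, and Gpi1 (glucose-6-phosphate isomerase) in all but subcluster 5, where the shares were 91.3% in the control library and 100% in the other. In all, 10, 9, 9 and 8 of the 32 genes were at 95% or more in both libraries in subclusters 0, 3, 4 and 5. A share at its ceiling cannot show a difference in level, so the shares of these genes carry little information on how much transcript each cell held.

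Genes at the entry of the pathway were less widely detected and varied between subclusters. Slc2a1 differed little between the control library and the library labelled depleted in subclusters 0, 3 and 4 (27.6% and 25%, 30% and 26.1%, 35.0% and 30%), but in subcluster 5 it was in 47.8% of control cells and 9.5% of cells of the library labelled depleted. Hk2, the inducible hexokinase, was in 32.5% and 60% of cells in subcluster 4 and in 60.9% and 38.1% in subcluster 5, so that its difference had opposite signs there. Hk1, the constitutive hexokinase, was higher in both of these, from 17.5% to 40.0% and from 30.4% to 42.9%, and was at 40.7% and 40.6% in subcluster 0 and at 53.3% and 43.5% in subcluster 3.

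Phosphofructokinase, the committed step, showed a similar lack of a shared direction. Its liver-type subunit Pfkl was in 80.0% and 50.0% of cells in subcluster 4, against 21.7% and 52.4% in subcluster 5. The platelet-type subunit Pfkp was lower in subcluster 0 (55.9% and 43.8%) and higher in subcluster 4 (32.5% and 50.0%). Pfkfb3 and Pfkfb4 make and remove the sugar phosphate that activates the enzyme. Pfkfb4 was lower in subcluster 0, from 25.5% to 9.4%, and Pfkfb3 was higher in subcluster 5, from 8.7% to 33.3%. The remaining differences of these 4 genes were between -7.9 and 8.9 points.

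The later enzymes of the pathway differed little in these cells. Pgk1 (phosphoglycerate kinase) went from 96.7% to 82.6% in subcluster 3 and differed by -0.8, -5.0 and -6.0 points in subclusters 0, 4 and 5. Tpi1, Pgam1, Eno1 and Ldha were at 90% or more in every library, with differences from -9.5 points (Eno1, subcluster 5) to 4.3 points (Tpi1, subcluster 5). Pdk1, which holds pyruvate back from mitochondria, was in 10.0% to 28.6% of cells, with differences of -10.0 points in subcluster 4 and 11.2 points in subcluster 5. The lactate exporter Slc16a3 was in 70.0% of control cells and 43.5% of cells of the library labelled depleted in subcluster 3, at 70.0% in both libraries in subcluster 4, and differed by -5.2 and 3.8 points in subclusters 0 and 5.

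Among the oxygen sensors, Hif1a was widely detected, in 77.2% of control cells and 90.6% of cells of the library labelled depleted in subcluster 0 and in 80.0% to 100% of cells elsewhere, with differences of 5.7, -5.0 and 0.0 points. Egln3, a hydroxylase that is itself a HIF target, was higher in subcluster 0 (50.3% and 71.9%) and lower in subcluster 4 (55.0% and 40.0%). Egln1, the main oxygen-sensing hydroxylase, was higher in subcluster 5 only, from 65.2% to 81.0%. Kdm3a, an oxygen-dependent histone demethylase, was higher in subclusters 3 and 4 (26.7% and 39.1%, 22.5% and 50.0%).

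The secreted factors and the stress genes differed most in subclusters 4 and 5. Vegfa, the angiogenic growth factor, was in 27.5% and 50.0% of cells in subcluster 4, against 56.5% and 33.3% in subcluster 5. Adm, the vasodilator peptide adrenomedullin, went from 26.1% to 47.6% in subcluster 5 and was under 4% in subclusters 0 and 3. Mif, a cytokine, was at 95.2% or more throughout. Ndrg1, a growth-restraining stress gene, was in 20% and 50.0% of cells in subcluster 4 and in 47.8% and 14.3% in subcluster 5. Ero1a, an oxidase that forms disulfide bonds in the endoplasmic reticulum, went from 65.2% to 38.1% in subcluster 5. For Slc2a1, Hk2, Vegfa, Ndrg1 and Ero1a, the 5 genes called lower in subcluster 5, the differences ran from -38.3 to -22.8 points there. In subcluster 4 the same genes differed by -5.0, 27.5, 22.5, 30 and 10.0 points.

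Mitochondrial members were more even. Bnip3 and Bnip3l encode receptors that mark mitochondria for removal, and Higd1a encodes a small protein of the inner membrane. Bnip3 was lower only in subcluster 4, from 55.0% to 40.0%. Bnip3l (82.6% and 95.2%) and Higd1a (87.0% and 100%) were higher in subcluster 5. Ankrd37, an ankyrin-repeat gene induced by hypoxia, was higher in subcluster 3, from 10.0% to 26.1%, and lower in subcluster 4, from 32.5% to 10.0%. Ddit4 (REDD1), an inhibitor of mTORC1 induced by hypoxia, glucocorticoids and energy stress, was at 46.9% and 43.8% in subcluster 0 and at 50.0% and 52.2% in subcluster 3. In subcluster 4 its shares were 67.5% and 40.0%, and in subcluster 5 they were 21.7% and 57.1%.

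The 18 cluster tables cover the sorted cells as a whole, but hold only genes that 25% or more of the cells in 1 of the libraries had a count for, and whose mean level differed past a limit set by the authors. Cell type names are those of the study. A gene under 25% in 1 library was listed only if it was at 25% or more in the other, which fixed the direction of its difference. A gene missing there has no value, and the share of cells can be equal, or move the other way, where the mean level differed. Over all clusters the 32 genes had 107 listings, 65 lower and 37 higher in share, beside 49.9% lower and 45.4% higher among all 15431 listings. The glycolysis genes had 47 of 68 listings lower and 16 higher, with a median of -9.0 points, and the hypoxia genes 18 of 39 lower and 21 higher, with a median of 5.7 points. Over all listed genes the median was 0.0 points. Of the 107 listings 15 were lower and 13 higher by the listing limit alone, 12 of the 13 being of hypoxia genes. Among the 79 at 25% or more in both libraries, 50 were lower and 24 higher, beside 46.8% and 45.8% of all 9887 such listings. The clusters share the same 2 libraries, so listings in several clusters do not repeat the comparison. The clusters singled out in what follows, and the direction counted in each, were picked after the values were seen.

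**Figure D2:**
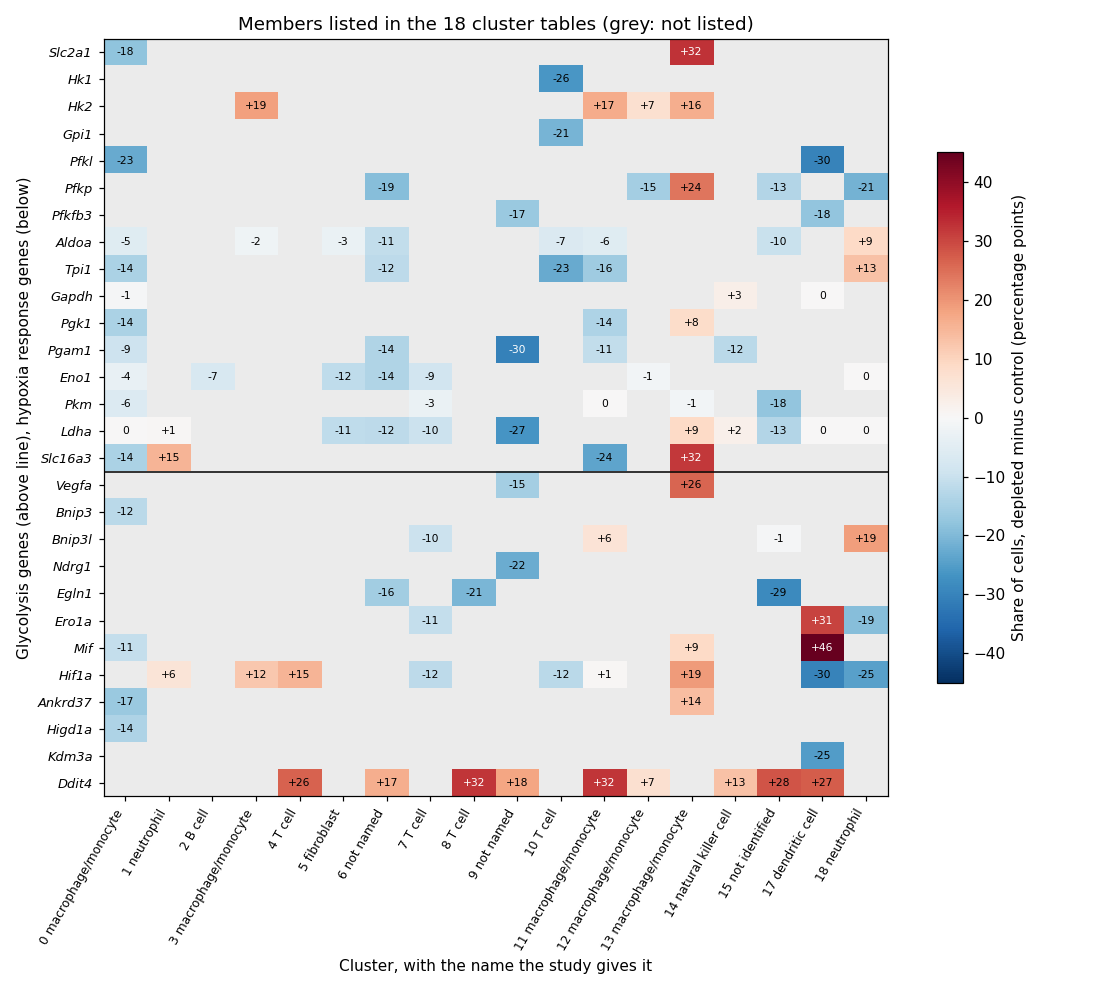
Difference in share of cells (colour and printed number, percentage points, library labelled depleted minus control) for the 28 listed genes (vertical axis) in 18 clusters (horizontal axis, with cell type names); grey cells hold genes not listed in that table. Cluster 0 is lower in 14 of 15 listed genes and cluster 13 is higher in 10 of 11; Ddit4, in the bottom line, has only positive values, but in 8 of its 9 clusters the listing limit of 25% fixed that direction.

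In cluster 0, a macrophage/monocyte cluster, 14 of the 15 listed genes were lower in the library labelled depleted, whereas 34.5% of all 923 genes listed for that cluster were. The glucose transporter Slc2a1 was in 35.2% of control cells and 17% of cells of the library labelled depleted. Pfkl went from 64.6% to 41.9%, Tpi1 from 94.2% to 80.0%, Pgk1 from 89.7% to 75.6% and Pgam1 from 94.0% to 84.7%. These transcripts encode the glucose transporter, an enzyme of the committed step and enzymes of the triose steps below it. Aldoa, Gapdh, Eno1 and Pkm, at 97.9% or more in the control library, differed by -5.3, -0.7, -3.5 and -6.1 points, and Slc16a3 went from 67.2% to 53.0%. The hypoxia genes Ankrd37 (34.6% and 18%), Higd1a (67.0% and 53.0%), Bnip3 (37.5% and 25.4%) and Mif (89.7% and 78.9%) were lower too. Ldha was the exception, at 96.3% and 96.4%. Slc2a1 and Ankrd37 passed the listing limit through the control library alone. Of the 13 genes at 25% or more in both libraries 12 were lower, beside 35.5% of all such genes in cluster 0. The median difference of the 15 genes was -12.1 points, beside 9.3 points for all genes listed in cluster 0.

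Cluster 13, also named macrophage/monocyte, showed the opposite direction. Of its 11 listed genes 10 were higher in the library labelled depleted, beside 55.7% of the 893 genes listed. Slc2a1 was in 21.1% of control cells and 53.5% of cells of the library labelled depleted, Slc16a3 in 35.8% and 67.6%, and Vegfa in 6.3% and 32.4%. The shares of cells with a transcript of the glucose transporter, the lactate exporter and the angiogenic factor thus differed by 26.1 to 32.4 points. Pfkp (42.1% and 66.2%), Hk2 (52.6% and 69.0%), Hif1a (73.7% and 93.0%) and Ankrd37 (15.8% and 29.6%) were higher by 13.8 to 24.1 points. Mif, Ldha and Pgk1 were higher by 9.0, 8.8 and 8.1 points, and Pkm was at 100% and 98.6%. Slc2a1, Vegfa and Ankrd37 passed the listing limit through the library labelled depleted alone, so they could only be higher. Of the 8 genes at 25% or more in both libraries 7 were higher, beside 52.8% of all such genes in cluster 13. The median of the 11 was 16.4 points, beside 4.6 points for all genes listed in cluster 13. Slc2a1, Slc16a3, Pgk1, Mif and Ankrd37 were listed in both clusters and were at -18.2, -14.2, -14.1, -10.8 and -16.6 points in cluster 0 and at 32.4, 31.8, 8.1, 9.0 and 13.8 points in cluster 13. For Slc2a1 and Ankrd37 the listing limit fixed the sign in both clusters. Ldha (0.1 and 8.8 points) and Pkm (-6.1 and -1.4 points) were also listed in both. Whether the difference between the clusters exceeds the variation between hearts was not tested.

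**Figure D3:**
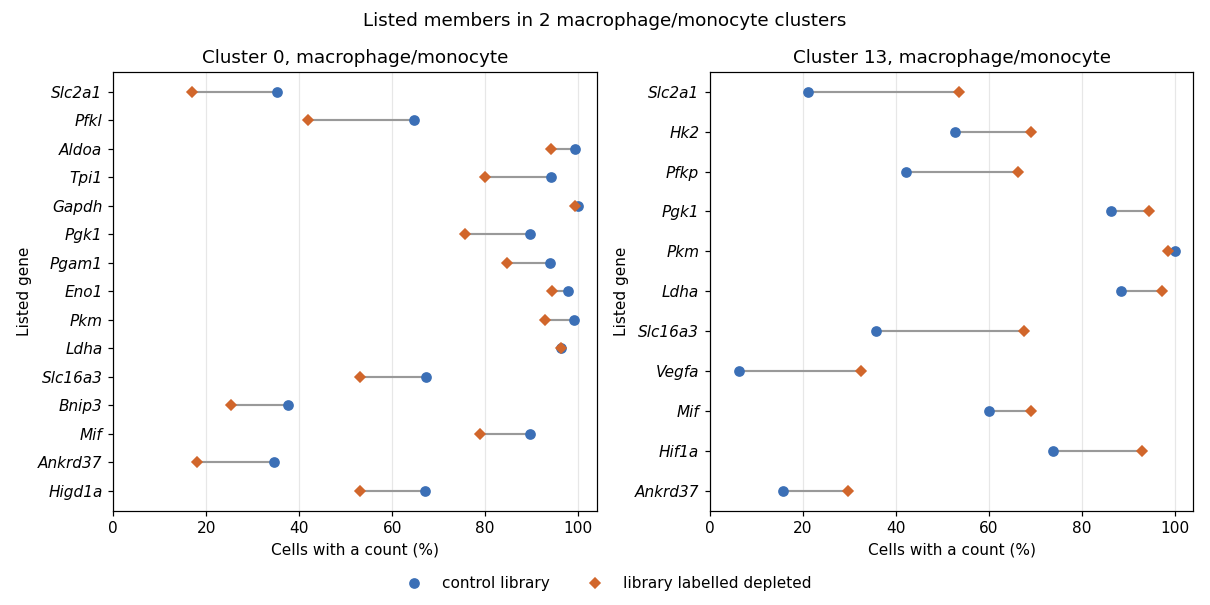
Share of cells with a count (percent, horizontal axis) for each glycolysis and hypoxia gene listed in macrophage/monocyte clusters 0 and 13 (vertical axis); circles are the control library, diamonds the library labelled depleted, with 1 library each and no error. In cluster 0 the diamonds lie left of the circles for 14 of 15 genes, and in cluster 13 they lie right of them for 10 of 11.

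Markers of other cells moved in these clusters as well. The neutrophil transcript S100a9 was in 54.8% of control cells and 20.3% of cells of the library labelled depleted in cluster 0, and in 56.8% and 29.6% in cluster 13. S100a8 went from 68.3% to 34.3% in cluster 0 and was at 51.6% and 50.7% in cluster 13. Haemoglobin Hbb-bs went from 25.8% to 4.6% in cluster 0 and was not listed in cluster 13. Of the macrophage markers, Adgre1 went from 77.4% to 89.9% and Cd68 from 93.1% to 88.6% in cluster 0, and C1qb from 52.6% to 26.8% in cluster 13, with Lyz2 at 100% in both libraries of both clusters. The part of these markers in the values of the glycolysis and hypoxia genes was not tested.

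The other clusters had fewer listed members, in clusters 5, 6, 7, 9, 10 and 15 mostly lower and in clusters 1, 3, 4 and 14 mostly higher. In the fibroblast cluster, cluster 5, 3 were listed and all 3 were lower, beside 54.0% of all its listed genes. They were Ldha (84.6% and 73.3%), Eno1 (79.9% and 68.4%) and Aldoa (97.7% and 94.7%). Beside them S100a9 (49.7% and 9.1%) and S100a8 (32.6% and 5.9%) were lower and Pdgfra (47.7% and 84.0%) was higher. The subclusters were normalised separately, and their levels were not compared with these. In cluster 6, which has no name in the study's list of cell types but is described there as proliferating, possibly T cells, 7 of 8 were lower, beside 64.3%, with differences from -19.0 points for Pfkp to -11.1 points for Aldoa. In cluster 9, without a name, 5 of 6 were lower, beside 64.4%, among them Pgam1 from 64.7% to 34.4% and Ldha from 100% to 73.5%. In both clusters the gene that was higher was Ddit4. Per the study, cells of clusters 6, 9 and 10 came mainly from Yapfl/fl;Wwtr1fl/+;PostnMCM hearts, and the smallest control shares above 0 there were 3.7%, 5.9% and 9.1%. Markers of other cells were lower as well, with S100a9 at 59.3% and 18.6% in cluster 6, and S100a8 at 58.8% and 27.5%, Col3a1 at 41.2% and 16.9% and Gzma at 82.4% and 58.2% in cluster 9.

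In the T cell clusters 7 and 10, 6 of 6 and 5 of 5 listed members were lower, beside 67.5% and 47.0%. Cluster 7 listed Eno1, Pkm, Ldha, Bnip3l, Ero1a and Hif1a, with differences between -11.7 and -3.1 points. Cluster 10 listed Hk1 (45.5% and 19.4%), Gpi1 (90.9% and 69.9%), Tpi1 (81.8% and 59.1%), Hif1a (54.5% and 42.5%) and Aldoa (63.6% and 57.0%). Beside them, S100a9 was at 67.7% and 46.5%, Col3a1 at 32.3% and 12.6% and the natural killer cell marker Klrb1c at 5.1% and 32.1% in cluster 7. In cluster 10, Col3a1 (45.5% and 17.2%), Lyz2 (54.5% and 28.0%) and Pecam1 (45.5% and 19.4%) were lower and Cd3e (72.7% and 94.6%) was higher. In cluster 15, not identified in the study, 6 of 7 were lower, beside 50.4%, led by Egln1 from 46.9% to 18.2%, with S100a9 at 62.5% and 22.7%. Cluster 11, a macrophage/monocyte cluster, had 5 of 10 lower, beside 54.7%, and 4 higher. There Slc16a3 (38.2% and 14.6%), Tpi1 (68.1% and 52.1%) and Pgk1 (74.3% and 60.4%) were lower, whereas Hk2 (39.6% and 56.2%) and Ddit4 (11.8% and 43.8%) were higher. The listing limit fixed the direction of Slc16a3 and Ddit4. In that cluster S100a8 (59.7% and 27.1%), S100a9 (63.9% and 31.2%), Retnlg (37.5% and 8.3%), Mmp9 (34.7% and 6.2%) and Lyz2 (76.4% and 45.8%) were lower and the dendritic cell marker Flt3 (50.0% and 75.0%) was higher. The part of these markers in the members' values was not tested.

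In the neutrophils of cluster 1, all 3 listed members were higher, beside 54.6% of its listed genes. They were Ldha (98.6% and 99.2%), Slc16a3 (42.2% and 57.5%) and Hif1a (37.9% and 43.6%), with the neutrophil marker Retnlg at 85.9% and 64.1%. In macrophage/monocyte cluster 3, Hk2 (38.7% and 57.2%) and Hif1a (60.6% and 72.9%) were higher and Aldoa (95% and 92.9%) was lower, 2 of 3 higher beside 58.5%, with S100a9 at 57.1% and 26.8%. T cell cluster 4 listed Hif1a (21.1% and 36.5%) and Ddit4, both higher, beside 64.7%, and both through the library labelled depleted alone. In the natural killer cells of cluster 14, Gapdh (97.5% and 100%), Ldha (89.9% and 92.3%) and Ddit4 were higher and Pgam1 (65.8% and 53.8%) was lower, 3 of 4 higher beside 48.5%. By the listing limit Ddit4 could only be higher there. There Lyz2 was at 83.5% and 96.2% and Klrb1c at 73.4% and 100%. The part of these markers was not tested either. Of the remaining clusters, cluster 2 (B cells) listed Eno1 alone (95.9% and 88.6%), and cluster 12 listed Eno1 (94.8% and 93.7%), Pfkp (40.6% and 25.3%), Hk2 (27.1% and 34.2%) and Ddit4.

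Ddit4 and Hif1a were the hypoxia genes listed in the most clusters, 9 each. In 8 of its 9 clusters the control share of Ddit4 was under 25%, so that it was listed there through the library labelled depleted alone and could only be higher, and in the other, cluster 12, it was higher as well. Its direction over these clusters is therefore no finding. Of 105 genes listed in at least 9 clusters, the number in which Ddit4 was listed, 13 (12.4%) were higher in every cluster that listed them, to which the same limit applies. In the T cell clusters 4 and 8, Ddit4 was in 11% and 15.8% of control cells and in 37.4% and 47.9% of cells of the library labelled depleted. In macrophage/monocyte clusters 11 and 12 it went from 11.8% to 43.8% and from 28.1% to 35.4%, in natural killer cells (cluster 14) from 17.7% to 30.8%, and in clusters 6, 9 and 15 from 14.8% to 31.3%, from 11.8% to 29.6% and from 12.5% to 40.9%. In the dendritic cells of cluster 17 it was listed at 0.0% in the control library and 27.3% in the library labelled depleted. The differences ran from 7.3 to 32.1 points over lymphoid and myeloid clusters. It was listed neither in cluster 0 nor in cluster 13, and its differences in the fibroblast subclusters, given above, had both signs.

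**Figure D4:**
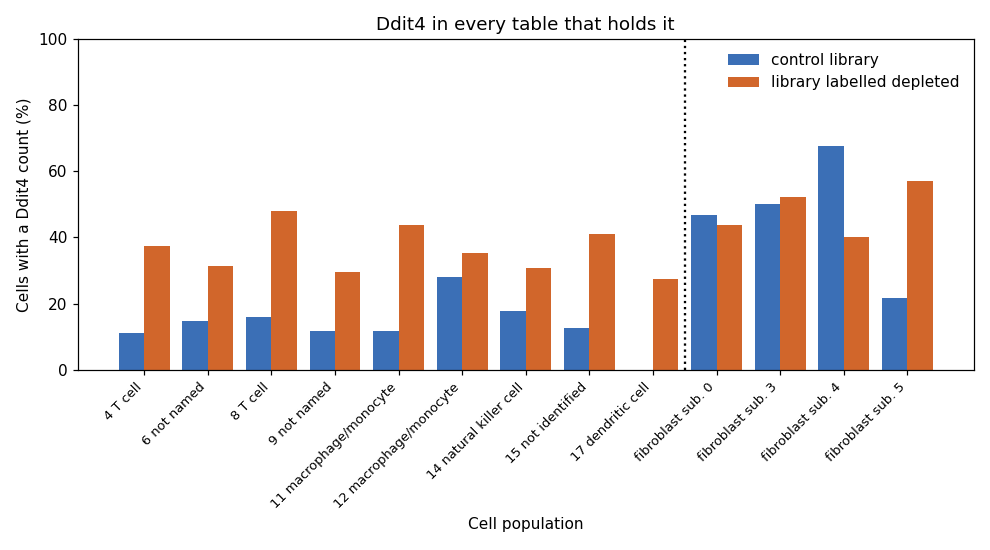
Share of cells with a Ddit4 count (percent, vertical axis) in the 9 clusters that list it and, right of the dotted line, in the 4 separately normalised fibroblast subclusters (horizontal axis); bars are the control library and the library labelled depleted, with 1 library each and no error. In every cluster shown except cluster 12 the control bar is under 25% (in cluster 17 at 0.0%), so the listing limit fixed the bar of the library labelled depleted as the taller; in the fibroblast subclusters, which have no such limit, it is the taller in 3 and 5 and the shorter in 0 and 4.

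Among glycolysis genes, Hk2 was listed in 4 macrophage/monocyte clusters, with differences of 18.5, 16.6, 7.1 and 16.4 points in clusters 3, 11, 12 and 13. Pgam1 was listed in 5 clusters at -30.3 to -9.3 points, Eno1 in 7 at -13.6 to 0.0 points and Aldoa in 8 at -11.1 to 9.1 points. How often other genes kept 1 direction over that many clusters was not counted. Ldha was listed most often, in 11 clusters, and was lower in 5 (-26.5 to -9.8 points), higher in 4 (0.1 to 8.8 points) and equal at 100% in 2. Pfkp was listed in 5 clusters, at -21.4 points in cluster 18, where the listing limit fixed the direction, and at 24.1 points in cluster 13.

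Hif1a, listed in 9 clusters, was lower in 4 and higher in 5. It was higher in clusters 1, 3, 4, 11 and 13, by 0.6 to 19.3 points, and lower in T cell clusters 7 and 10, dendritic cells and the neutrophil cluster 18, at -30 to -11.7 points. In clusters 4, 17 and 18 the listing limit of 25% fixed the direction of Hif1a. Its hydroxylase Egln1 was listed in clusters 6, 8 and 15, at -28.7 to -15.8 points. In clusters 8 and 15 the limit fixed that direction. In the dendritic cells of cluster 17, where shares are coarse, Mif (45% and 90.9%), Ero1a (15% and 45.5%) and Ddit4 were higher, whereas Pfkl (30% and 0.0%), Hif1a (30% and 0.0%), Kdm3a (25% and 0.0%) and Pfkfb3 (45% and 27.3%) were lower. The listing limit also fixed the direction of Ero1a, Ddit4, Pfkl and Kdm3a there, and of Pfkp in cluster 18. In the neutrophils of cluster 18, Bnip3l (63.6% and 82.4%), Tpi1 (45.5% and 58.8%) and Aldoa (90.9% and 100%) were higher, and Pfkp (27.3% and 5.9%), Ero1a (54.5% and 35.3%) and Hif1a (36.4% and 11.8%) were lower. Beside them, Col3a1 was at 35.0% and 0.0%, Hbb-bs at 35.0% and 0.0% and S100a9 at 50.0% and 27.3% in cluster 17, and Col3a1 at 36.4% and 5.9% and Hbb-bs at 36.4% and 0.0% in cluster 18.

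A further 20 genes of glycolysis and pyruvate entry and 26 of the hypoxia response, which are not among the 32, were counted the same way. In the cluster tables the glycolysis genes had 30 listings, 18 lower and 11 higher, and the hypoxia genes 26 listings, 11 lower and 15 higher, beside 49.9% lower and 45.4% higher of all listings. In cluster 0 the mitochondrial pyruvate carrier genes Mpc1 (62.7% and 48.8%) and Mpc2 (76.3% and 58.7%) were lower, as were Fam162a (54.4% and 30.2%), P4ha1 (70.9% and 60.7%) and Hmox1 (82.6% and 77.6%), while Wsb1 (36.2% and 52.3%) was higher. In cluster 13, P4ha1 (38.9% and 49.3%) and Mxi1 (20% and 42.3%) were higher, whereas Ldhb (45.3% and 29.6%) and Hmox1 (54.7% and 53.5%) were lower. Ldhb, the heart-type lactate dehydrogenase subunit, was higher by 13.8 to 32.5 points in clusters 4, 6, 9, 10 and 15. By the listing limit Mxi1 in cluster 13 and Ldhb in cluster 4 could only be higher.

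In the fibroblast subclusters these further genes again showed both signs. Of the glycolysis genes that passed the detection limit, 2 of 16, 2 of 15, 3 of 17 and 7 of 16 were lower, beside 12.9%, 21.9%, 22.9% and 19.6% of all genes, and 0, 6, 2 and 3 were higher, beside 14.7%, 17.4%, 31.7% and 28.1%, in subclusters 0, 3, 4 and 5. Of the hypoxia genes, beside the same percentages, 3 of 20, 4 of 20, 5 of 24 and 7 of 23 were lower and 6, 3, 4 and 5 were higher. Angptl4, a secreted inhibitor of lipoprotein lipase, differed by 3.5, 9.0, 25 and 34.3 points. P4ha2, a prolyl hydroxylase of collagen, differed by -17.4, -18.3, 0.0 and -25.1 points. In the fibroblast cluster as a whole the collagen-modifying enzymes Plod2 (70.8% and 82.9%) and Lox (65.1% and 78.1%) were higher and Eno3 (29.9% and 16.6%) was lower. The listing limit fixed the direction of Eno3.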

How the data were processed

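Per the labels and the study's methods, the authors aligned reads with Cell Ranger 6.1.1 to GRCm39 plus reporter sequences, combined both libraries without equalising depth, normalised with SCTransform in Seurat and clustered the cells, naming no doublet caller. For each gene the deposited tables give the fraction of cells of each library that had a corrected count over 0, rounded by the authors, here printed as a percent. They also hold the authors' fold changes and p-values, which were not used.

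The 32 genes were looked up by symbol in all 22 tables. Members, further pathway genes and markers were chosen with earlier results of these data known. All 32 were named; the clusters, promoters and limit of 9 clusters singled out were chosen after values were seen. Differences were taken with Python 3.11.15 and pandas 2.3.3 for genes of a mean share of at least 10% in the fibroblast tables, and counted at 10 points. The counting was tested on simulated shares. Promoter cores were searched in the reference genome. The tables give no depth or cell numbers per cluster, no test was made, and alternatives are given at the end. Not analysed here were cluster 16 and subclusters 1 and 2 of the fibroblasts.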

Additional observations from a re-analysis of the deposited data

Results flagged for a closer look

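For 11 of the 32 genes the differences between the libraries had opposite signs in 2 cell populations, each by at least 20 points. By the same rule over the same 22 tables, so did 1392 of 12373 genes (11.3%) of a mean share of at least 10% in a fibroblast subcluster, a set not matched to these genes for detection or for the number of tables listing them. These differences of direction were not tested, since each population has 1 library per genotype. Differences are in percentage points, the library labelled depleted minus the control.

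Slc2a1 was at -38.3 in fibroblast subcluster 5 (47.8% and 9.5%) and at 32.4 in macrophage/monocyte cluster 13. Slc16a3 was at -26.5 in subcluster 3 and 31.8 in cluster 13, and Vegfa at -23.2 in subcluster 5 and 26.1 in cluster 13. Pfkp was at -21.4 in neutrophil cluster 18 and 24.1 in cluster 13. Hk1 was at -26.1 in T cell cluster 10 and 22.5 in subcluster 4. The listing limit fixed the sign of Slc2a1 and Vegfa in cluster 13, of Pfkp in cluster 18 and of Hk1 in cluster 10. The opposite signs of these genes are therefore no finding.

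Within the fibroblasts, Hk2 was at 27.5 in subcluster 4 and -22.8 in subcluster 5, Ndrg1 at 30 and -33.5, and Ddit4, in the other order of signs, at -27.5 and 35.4. Ero1a was at -27.1 in subcluster 5 and 30.5 in dendritic cell cluster 17. In cluster 17 Pfkl was at -30 and Kdm3a at -25, while Pfkl was at 30.7 in subcluster 5 and Kdm3a at 27.5 in subcluster 4. The listing limit fixed the signs of Ero1a, Pfkl and Kdm3a in cluster 17, so the opposite signs of these genes are no finding either. The smallest share above 0 was 10.0% in subcluster 4 and 9.1% in cluster 17 of the library labelled depleted.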

How the results depend on the processing

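No paired analysis was possible because there was 1 library per genotype, and for the same reason no replicate could be left out. Of 72 values under an alternative, 14 moved, meaning counts by over 1.5 times, or medians by at least the larger of the smallest shares above 0 in that table (3.1, 4.3, 10.0 and 4.8 points in subclusters 0, 3, 4 and 5). With a limit of 20 points, the members lower went from 2 to 0, from 2 to 1 and from 6 to 3 in subclusters 0, 3 and 4, and those higher from 2 to 1, from 2 to 0 and from 9 to 4 in subclusters 0, 3 and 5. With a log2 ratio of shares of at least 0.5 in size, subcluster 0 had 1 lower and 1 higher. The median of the hypoxia genes in subcluster 0, 0.25 points, was -0.3 with no filter on low shares or without genes above 90%, and that of the glycolysis genes in subcluster 5 (0) was -1.3 less the median of all genes and 3.8 without genes above 90%. Without those genes the glycolysis median was -3.35 in subcluster 0 and -2.5 in subcluster 4, and the hypoxia median -3.45 in subcluster 3, 5 (from 2.5) in subcluster 4 and 7.05 (from 5.6) in subcluster 5. These changes are within that tolerance. The other 4 alternatives were chosen after seeing the data. Counting only listings of at least 10 points left 24 of 37 higher listings and 9 of 14 lower genes in cluster 0. Without 7 clusters whose smallest listed share above 0 was over 5% in a library (1, 4, 9, 10, 12, 17 and 18), 23 higher listings remained. That value need not be the step between shares, since genes of low share are not listed. Ddit4 was then higher in 5 of 5 clusters, in each of which the listing limit fixed that direction. With only listings at 25% or more in both libraries, 24 higher listings and 1 for Ddit4 remained. Without cluster 0, 51 lower listings remained. Shares near 100% hide differences in level, and the tables do not give the depth that limits each value.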

Other observations

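Txnip and Tsc22d3 were singled out after their values, and those of other stress-response genes, had been seen, and they are given as values only. Txnip encodes a protein that restrains glucose uptake and is induced by glucose. It was listed in both macrophage/monocyte clusters described above, in 76.4% of control cells and 91.4% of cells of the library labelled depleted in cluster 0 and in 80.0% and 57.7% in cluster 13. Its differences of 15 and -22.3 points were opposite in sign to those of Slc2a1 in the same clusters. The listing limit fixed the sign of Slc2a1 in both, so this contrast is no finding. Txnip was higher in 6 of the 8 clusters that listed it, beside 45.4% of all listings. It was at 52.3% and 70.6% in the fibroblast cluster, but differed by 0.6, 3.9, 2.5 and -11.6 points in fibroblast subclusters 0, 3, 4 and 5.

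Tsc22d3 (GILZ) is, like Ddit4, known to be induced by glucocorticoids. It was listed in 11 clusters and was higher in the library labelled depleted in 10 of them, by 5.4 to 42.7 points, and lower in T cell cluster 4, from 70.4% to 54.3%. Of all listings 45.4% were higher. In 2 of the 10 the control share was under 25%, so that the listing limit fixed its direction there. Of its 9 listings at 25% or more in both libraries 8 were higher, beside 45.8% of all such listings. In the 4 fibroblast subclusters it differed by 9.1, 16.8, 7.5 and 31.9 points. The clusters share 1 library per genotype, so these listings do not repeat the comparison.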
